A study of Rattus norvegicus with 6 samples.

Results

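The miR-17-92 cluster and its paralogue clusters were measured in small RNA libraries from the rat lens capsule. Their members were taken as every row of the deposited count table with a rat name of miR-17, miR-18a, miR-19a, miR-19b, miR-20a, miR-20b, miR-25, miR-92a, miR-92b, miR-93, miR-106b or miR-363, all arms and copies included, which gave 27 of the 910 names in the table. The libraries came from the capsular membrane of lenses of Sprague Dawley rat pups, 3 from the control group given saline and 3 from the Na2SeO3 group given sodium selenite at 20 μmol/kg, which clouds the lens. Both groups were injected under the skin of the nape on days 3, 5, and 7, and the lenses were taken on day 15 of the experiment, for which the methods name pups 8 days old. No transgene or gene deletion is named for either group, and 3 rats of each group were sequenced.

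miRNAs of this group are transcribed as a few long precursors that are cut into several hairpins, each of which can yield a 5p and a 3p arm. One arm, the guide, is usually kept in the silencing complex, and its seed, bases 2 to 8, pairs with target mRNAs. The miR-17-92 cluster is a known target of Myc and E2F factors, is high in dividing cells, and represses among others Cdkn1a and Bcl2l11, which restrain the cell cycle and cell survival. In the lens, cells divide in the epithelium that lies under the anterior capsule, and fiber cells leave the cell cycle.

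In the RefSeq annotation of GRCr8 the members come from 4 places, and all 27 names were found there. The mature miRNAs of miR-17-92 lie on the plus strand at chr15:98587861-98588622, from Mir17 through Mir18a, Mir19a, Mir20a, and Mir19b1 to Mir92a1. Those of miR-106b-25 lie on the minus strand at chr12:22156652-22157123, inside the protein-coding gene Mcm7, a part of the helicase that opens DNA for replication. Those of miR-106a-363 lie on the minus strand at chrX:137342788-137343637 and come from Mir106a, Mir20b, Mir19b2, Mir92a2, and Mir363. Mir92b stands alone on the minus strand, at chr2:176931663-176931725 for its mature arms, between Thbs3 and Muc1. The build behind the count table is not given in the sources used here, so these positions describe RefSeq and were not used to count reads.

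The 12 guide arms fall into 4 seeds, which cut across the clusters, and their mature sequences are shown because the comparison by seed rests on them (RefSeq, GRCr8, 5′ to 3′, seed in capitals). The miR-17 seed is carried by 5 guides:
rno-miR-17-5p: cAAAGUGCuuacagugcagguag
rno-miR-20a-5p: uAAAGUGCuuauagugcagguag
rno-miR-20b-5p: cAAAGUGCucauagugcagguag
rno-miR-93-5p: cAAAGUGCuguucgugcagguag
rno-miR-106b-5p: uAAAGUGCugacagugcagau
The miR-18 seed is carried by 1 guide:
rno-miR-18a-5p: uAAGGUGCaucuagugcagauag
The miR-19 seed is carried by 2 guides:
rno-miR-19a-3p: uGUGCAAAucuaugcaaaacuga
rno-miR-19b-3p: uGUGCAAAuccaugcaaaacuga
The miR-92 seed is carried by 4 guides:
rno-miR-92a-3p: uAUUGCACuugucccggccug
rno-miR-92b-3p: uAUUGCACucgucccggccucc
rno-miR-25-3p: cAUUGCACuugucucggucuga
rno-miR-363-3p: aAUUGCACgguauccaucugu

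Among the 693 mature rat miRNAs of that RefSeq table, the miR-17, miR-18, and miR-19 seeds were found in no others, and the miR-92 seed was found in 1 more, rno-miR-32-5p. Several guides are close copies of each other. rno-miR-19a-3p and rno-miR-19b-3p differ at 1 of 23 positions (U11C, counted from the 5′ end), rno-miR-17-5p and rno-miR-20a-5p at 2 of 23, rno-miR-92a-3p and rno-miR-92b-3p at 2 of 21 compared, and rno-miR-92a-3p and rno-miR-25-3p at 3 of 21 compared. How the authors' counting divided reads among such copies is not given, so the split of levels between them is uncertain. The mature sequences of rno-miR-17-5p, rno-miR-19b-3p, and rno-miR-92a-3p are listed at a gene of miR-17-92 and at a gene of miR-106a-363, so their reads cannot be placed in either cluster. In sums by cluster they were put with miR-17-92.

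The counts summed to 1806596 to 2829903 in the control libraries and to 663096 to 968151 in the Na2SeO3 libraries. Set against the raw reads per library, these were 25.6% to 39.7% of the reads in the control and 11.45% to 13.03% in the Na2SeO3 libraries, so the counted share was lower in all 3 Na2SeO3 libraries, and its part in the relative levels below was not tested. Levels are given as CPM (a library's counts brought to a common total) after TMM scaling, which assumes that most miRNAs keep their level. A count of 3 corresponds to 1.06 to 1.66 CPM of the summed counts in the control libraries and to 3.10 to 4.52 CPM in the Na2SeO3 libraries, and this limit covers counting error only, because copies made by PCR were not told apart. The clusters' 27 names took 0.169% to 0.177% of the counts in the control libraries and 0.262% to 0.325% in the Na2SeO3 libraries. Lens miRNAs were abundant, with miR-184 and miR-204-5p together at 88506 to 102665 CPM in the control and 43940 to 55215 CPM in the Na2SeO3 libraries. Muscle, neural, and endothelial miRNAs were counted in every library as well, with the values given at the end. In bulk tissue fewer cells of a type and less RNA per cell cannot be told apart.

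Of the 27 names, 11 had enough counts to be tested, 10 guides and the 3p arm of miR-106b. A DEmiRNA, by the thresholds of the study's methods, had to reach an adjusted p below 0.05 and a log2 fold change (log2FC, Na2SeO3 over control) beyond 1 in either direction. The test was edgeR's quasi-likelihood test over 341 miRNAs, and the errors of log2FC are standard errors (SE). None of the 11 was a DEmiRNA in either direction, where 11.4% of the miRNAs tested were up-regulated and 4.99% down-regulated, and DESeq2 likewise called 0 of the 11. The call depended on the scale. With library size only, 1 of the 11 was up-regulated (miR-25-3p), where 15.5% of all were, and with raw reads as the scale 4 of the 11 were down-regulated (miR-17-5p, miR-20a-5p, miR-106b-5p, and miR-363-3p), where 51.6% of all were. At an unadjusted p-value of 0.05, 3 of the 11 passed, against 151 of the 341. With the adjusted p-value alone, 2 of the 11 were higher in the Na2SeO3 group, where 20.8% of all miRNAs tested were, and 0 were lower, where 13.8% were. The 2 were rno-miR-25-3p and rno-miR-106b-3p, both from the miR-106b-25 cluster. The median log2 fold change of the 11 was 0.23 and that of all 341 was 0.08.

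**Figure D1:**
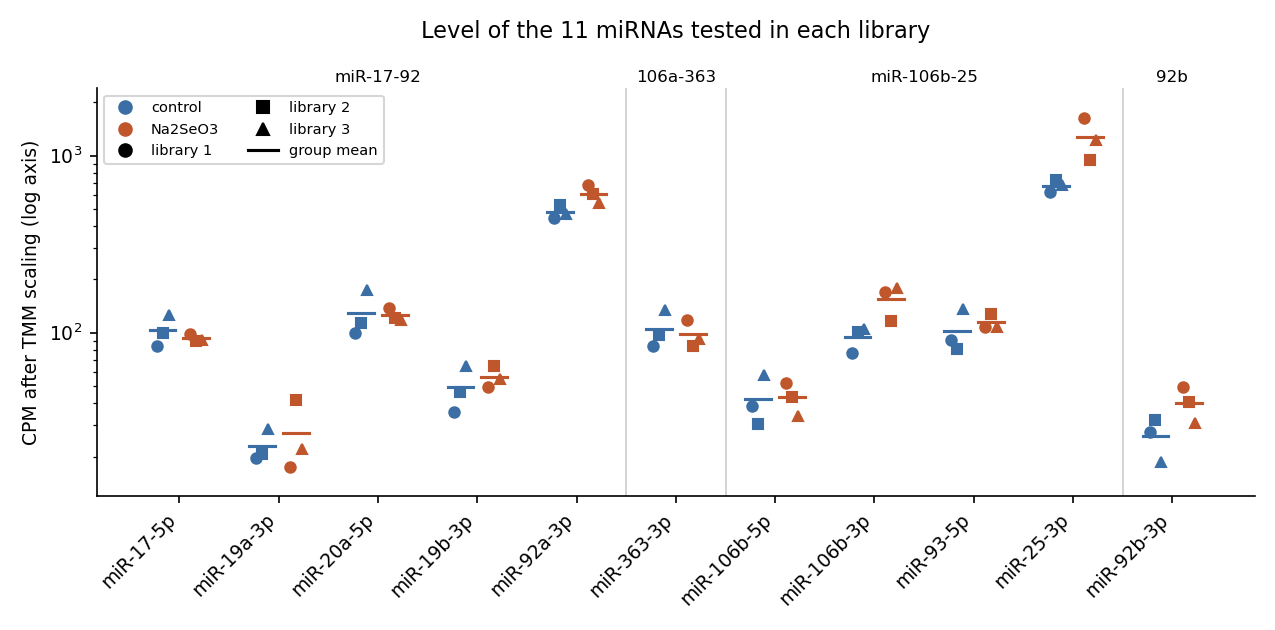
CPM after TMM scaling (log axis) of the 11 miRNAs tested in each of the 6 libraries, blue for control and orange for Na2SeO3, with circles, squares, and triangles for libraries 1 to 3 and a line at each group mean; miR-17-5p, miR-19b-3p, and miR-92a-3p are drawn with miR-17-92 but may also come from miR-106a-363. The 3 Na2SeO3 libraries lie above the 3 control libraries on this scale in miR-25-3p, miR-106b-3p, and miR-92a-3p and overlap them in the other 8.

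rno-miR-25-3p, the most abundant member, was counted 1809, 1403, and 1056 times in control libraries 1 to 3 and 1123, 1047, and 1118 times in Na2SeO3 libraries 1 to 3. After scaling these were 624, 725, and 683 CPM against 1634, 950, and 1229 CPM. Every Na2SeO3 library lay above every control library, and Na2SeO3 library 2 was the lowest of its group. On average it went from 677 ± 50.5 to 1271 ± 344 CPM (SD, n = 3 each), which made log2FC 0.91 ± 0.20 (SE), or 1.87-fold, with an adjusted p of 0.0035 (edgeR). Leaving out any of the 6 libraries kept it past the adjusted p-value, at 0.0010 to 0.0453 (edgeR). The log2FC was lowest without Na2SeO3 library 1, at 0.66, and crossed the fold change threshold without Na2SeO3 library 2, at 1.08, and with library size as the only scale, at 1.09. With the raw reads that the study lists per library as the scale, the log2 fold change turned to -0.26 (adjusted p = 0.498, edgeR), while the median of all miRNAs tested moved from 0.08 to -1.07. Relative to that median the difference was 0.83 with TMM and 0.80 with raw reads. A change of scale moves all miRNAs by nearly the same amount, so these values are alike by construction.

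rno-miR-106b-3p, the arm opposite the usual guide of miR-106b, was at 76.6, 101, and 105 CPM in the control libraries and at 169, 117, and 178 CPM in the Na2SeO3 libraries. The groups did not overlap, although Na2SeO3 library 2 stood close to the highest control library. It averaged 94.3 ± 15.5 and 155 ± 32.9 CPM (SD, n = 3 each), or log2FC 0.71 ± 0.21 (SE; adjusted p = 0.0169, edgeR). With raw reads as the scale the log2FC turned to -0.42 (adjusted p = 0.294, edgeR). Relative to the median of all miRNAs it was 0.63 with TMM and 0.65 with raw reads, again alike by construction. The call did not hold without control library 1, 2 or 3 or without Na2SeO3 library 3, where the adjusted p-values were 0.110, 0.0623, 0.0510, and 0.0804 (edgeR), nor without a filter on low counts, where it was 0.0694.

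The other guides of the same cluster did not pass. rno-miR-93-5p was at 91.1, 81.1, and 136 CPM in the control libraries and at 108, 128, and 108 CPM in the Na2SeO3 libraries, with log2FC 0.17 ± 0.22 (SE; adjusted p = 0.602, edgeR). rno-miR-106b-5p was at 38.7, 30.5, and 57.5 CPM and at 52.4, 43.5, and 34.1 CPM, with log2FC 0.04 ± 0.27 (SE; adjusted p = 0.923). With raw reads as the scale they were at -0.95 and -1.09 and passed (adjusted p = 0.0163 and 0.0141, edgeR). In both the groups overlapped on the TMM scale, and control library 3 was the highest of its group. rno-miR-25-5p and rno-miR-93-3p were counted at most 3 and 5 times in a library and were not tested. A further name in the table, hsa-miR-93-3p, is not a rat name and so was not a member. It was counted 364 to 1282 times, at 427 ± 20.5 CPM in the control and 496 ± 77.4 CPM in the Na2SeO3 group (SD, n = 3 each; log2FC 0.21 ± 0.17 SE, adjusted p = 0.351, edgeR). Whether it took reads of the rat 3p arm was not tested.

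Because 1 precursor carries miR-106b, miR-93, and miR-25, ratios of its products within a library were compared, which need no scaling between libraries and were chosen after the values were seen. The ratio of miR-25-3p to miR-93-5p was 6.85, 8.94, and 5.03 in the control libraries and 15.2, 7.43, and 11.4 in the Na2SeO3 libraries. The groups overlapped through Na2SeO3 library 2 (log2 difference 0.69, two-sided exact permutation test, p = 0.2, with 0.1 the smallest that 3 against 3 allow). The ratio of miR-106b-3p to miR-93-5p overlapped too, at 0.776 to 1.24 and 0.915 to 1.65 (log2 difference 0.52, exact permutation test, p = 0.2), and with 3 libraries a group neither test could pass 0.05.

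The arms of miR-106b were the only pair in which both had a mean of at least 10 counts. The 3p arm was the more counted arm in every library, with the 5p arm at 0.506, 0.304, and 0.547 of it in the control libraries and at 0.313, 0.375, and 0.194 of it in the Na2SeO3 libraries. These ratios overlapped between the groups (exact permutation test, two-sided, p = 0.3). Under rat names, the arm that is not the guide never exceeded 13 counts in a library in the other precursors.

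In miR-17-92 none of the 5 guides tested passed the adjusted p-value on the TMM scale. rno-miR-92a-3p, its most counted miRNA, was at 447, 527, and 466 CPM in the control libraries and at 679, 604, and 542 CPM in the Na2SeO3 libraries. The Na2SeO3 libraries were all higher, as they were in 25.2% of all miRNAs tested, and in 3 of the 11 here, whereas 21.1% of all miRNAs and 0 of the 11 were lower in all of them. Its log2FC of 0.34 ± 0.16 (SE) did not pass (adjusted p = 0.116, edgeR). With library size as the only scale it was 0.54 and passed (adjusted p = 0.0202), and with raw reads it was -0.81 and passed in the other direction (adjusted p = 0.0328, edgeR).

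rno-miR-17-5p, whose seed family represses Cdkn1a, was at 83.9, 100.3, and 125 CPM in the control libraries and at 98.9, 89.8, and 91.2 CPM in the Na2SeO3 libraries. rno-miR-20a-5p, with the same seed, was at 99.7, 114, and 174 CPM and at 138, 122, and 118 CPM. The Na2SeO3 libraries lay within the control range in both miRNAs, and the control libraries were the more spread. They had log2FC -0.14 ± 0.20 and -0.03 ± 0.22 (SE; adjusted p = 0.633 and 0.916, edgeR), and with library size as the only scale these turned to 0.06 and 0.18. With raw reads as the scale both were DEmiRNAs, at -1.25 and -1.13 (adjusted p = 0.0019 and 0.0040, edgeR).

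rno-miR-19a-3p and rno-miR-19b-3p, which share the miR-19 seed, did not pass either. rno-miR-19a-3p was at 19.7, 20.7, and 28.4 CPM in the control libraries and at 17.5, 41.7, and 22.0 CPM in the Na2SeO3 libraries, where library 2 stood above all others. Its log2FC was 0.30 ± 0.32 (SE; adjusted p = 0.526, edgeR) and turned to -0.20 without that library. rno-miR-19b-3p was at 35.5, 46.5, and 65.3 CPM and at 49.5, 65.3, and 54.9 CPM, log2FC 0.23 ± 0.25 (SE; adjusted p = 0.526), and its highest control and highest Na2SeO3 libraries were level. rno-miR-18a-5p was counted 6, 6, and 1 times in the control libraries and 1, 6, and 5 times in the Na2SeO3 libraries, too few to be tested.

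Among the names that belong to miR-106a-363 alone, rno-miR-363-3p had the most counts, at 84.6, 96.6, and 134 CPM in the control libraries and at 118, 84.4, and 92.3 CPM in the Na2SeO3 libraries, with overlapping groups (log2FC -0.10 ± 0.22 SE, adjusted p = 0.781, edgeR). With library size only its log2FC turned to 0.10, and with raw reads it was a DEmiRNA at -1.21 (adjusted p = 0.0025, edgeR). rno-miR-20b-5p had 10 to 16 counts in the control and 5 or 6 in the Na2SeO3 libraries, 5.89 ± 0.50 and 6.07 ± 1.04 CPM (SD, n = 3 each), and did not reach the filter. rno-miR-92b-3p, from its own locus, was at 27.6, 32.0, and 18.8 CPM and at 49.5, 40.8, and 30.8 CPM. Its groups met at the lowest Na2SeO3 library, and its log2FC of 0.60 ± 0.27 (SE) did not pass (adjusted p = 0.0988, edgeR), except with library size as the only scale (0.78, adjusted p = 0.0432).

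The 16 names not tested had at most 16 counts in a library. Among them rno-miR-19a-5p, rno-miR-19b-2-5p, and rno-miR-92a-2-5p were at 0 in all 6 libraries, which allows up to 3 counts in each. Arms that belong to only 1 copy of a doubled gene were rare on either chromosome. Over all libraries, rno-miR-17-1-3p, of Mir17, had 13 counts and rno-miR-17-2-3p, of Mir106a, had 37. rno-miR-92a-1-5p had 19, of which 13 were in control library 1, and rno-miR-19b-1-5p had 2. From which cluster the shared guides came was not tested.

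**Figure D2:**
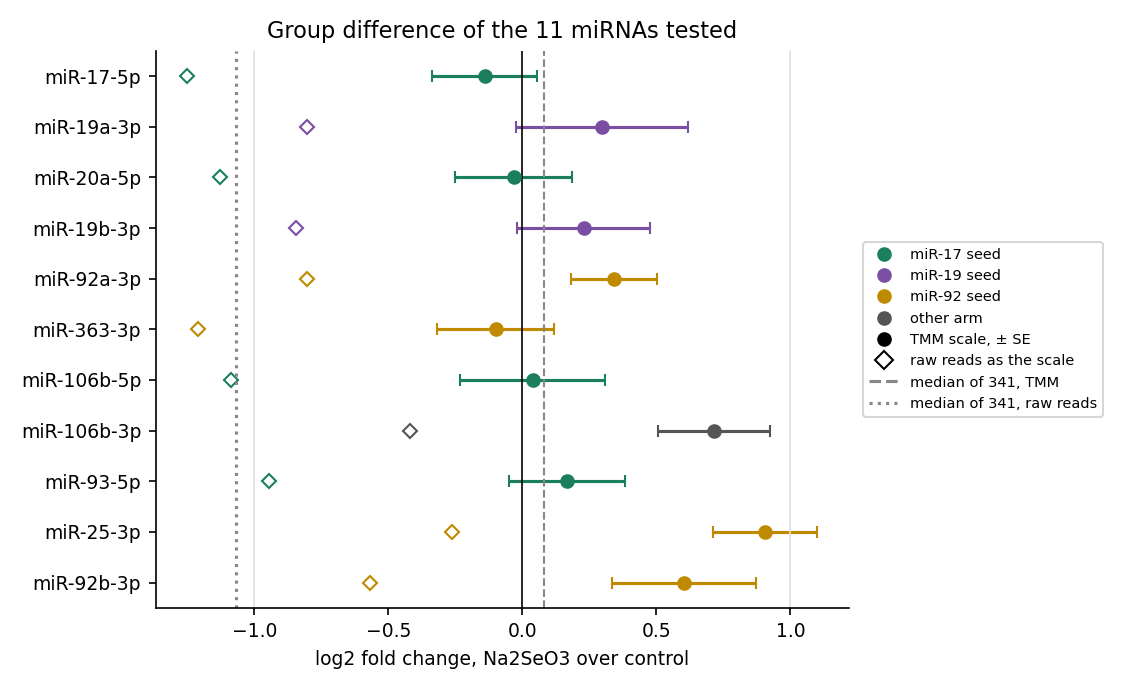
Log2 fold change, Na2SeO3 over control, of the 11 miRNAs tested, as filled points with standard errors on the TMM scale and as open diamonds with raw reads as the scale, coloured by seed; the dashed and dotted lines are the medians of all 341 miRNAs, 0.08 and -1.07. miR-25-3p at 0.91 and miR-106b-3p at 0.71 passed the adjusted p-value on the TMM scale, and with raw reads all 11 lie below 0, with these at -0.26 and -0.42.

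By cluster, the summed level of miR-106b-25 was 833, 940, and 982 CPM in the control libraries and 1968, 1239.9, and 1549.5 CPM in the Na2SeO3 libraries. All Na2SeO3 libraries were higher, a 1.70-fold difference by the means of the log2 values, as for all folds of sums given here. The sum had means of 918 ± 76.8 and 1586 ± 366 CPM (SD, n = 3 each; two-sided exact permutation test on log2 values, p = 0.1, the smallest possible). miR-25-3p made up 69.5% to 83.0% of this sum. With hsa-miR-93-3p added, a choice made after the values were seen, the sum was 1276 to 1417 CPM and 1647 to 2498 CPM, still separate and 1.53-fold (exact permutation test, p = 0.1), and miR-25-3p made up 48.2% to 65.4% of it. The sum of miR-17-92, with the shared miRNAs, was 694, 814, and 863 CPM against 988, 933, and 837 CPM, 1.17-fold, and the groups overlapped (exact permutation test, p = 0.2). Of this sum 54.0% to 68.8% was miR-92a-3p, which cannot be placed in either cluster. Without miR-19b-3p and miR-92a-3p the log2 ratio of miR-17-92 went from 0.22 to -0.01. The sum of miR-106a-363 was 95.6 to 145 CPM and 104 to 131 CPM, 0.98-fold (exact permutation test, p = 0.8), and that of miR-92b was 18.8 to 32.0 and 31.9 to 49.5 CPM (p = 0.2, exact permutation test). With raw reads as the scale the log2 ratio of miR-106b-25 was -0.35 and that of miR-17-92 was -0.90.

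The difference between the clusters was tested as the ratio of their summed counts within a library. Most of these sums of rat names was miR-25-3p and miR-92a-3p. The ratio of the clusters is therefore not independent of that of miR-25-3p to miR-92a-3p, given below. miR-106b-25 stood to miR-17-92 as 1.20, 1.15, and 1.14 in the control libraries and as 1.99, 1.33, and 1.85 in the Na2SeO3 libraries. The control ratios were close together and every Na2SeO3 ratio was above them, with means of 1.16 ± 0.03 and 1.72 ± 0.35 (SD, n = 3 each) and a log2 difference of 0.54 (exact permutation test, p = 0.1, the smallest possible). This separation depended on leaving out the human-named row. With hsa-miR-93-3p in miR-106b-25 the ratios were 1.84, 1.65, and 1.64 against 2.53, 1.76, and 2.51, and control library 1 lay above Na2SeO3 library 2 (log2 difference 0.39, exact permutation test, p = 0.2). Without miR-25-3p, which was left out because it had the highest log2FC of the cluster, the log2 difference was 0.18, given as a description.

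**Figure D3:**
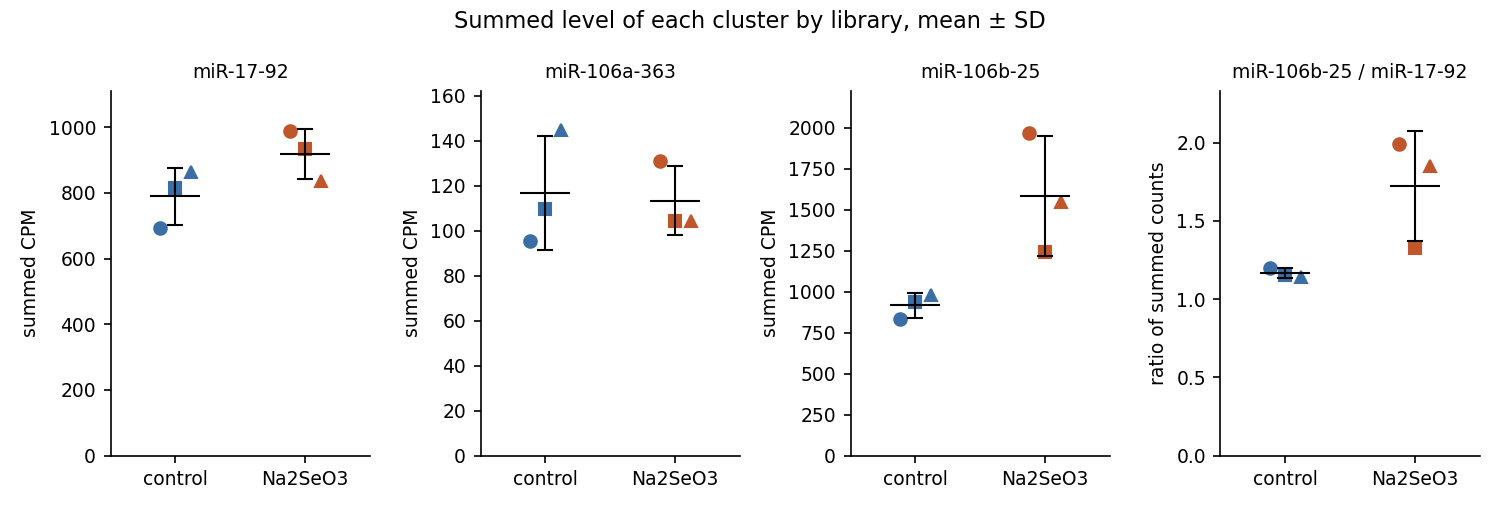
Summed CPM of miR-17-92, miR-106a-363, and miR-106b-25, and the ratio of the summed counts of miR-106b-25 to miR-17-92, in each library (circles, squares, and triangles for libraries 1 to 3, blue for control, orange for Na2SeO3), with the group mean and SD (n = 3) in black and axes from 0. On this scale the groups separate in miR-106b-25 (833 to 982 against 1239.9 to 1968 CPM), and they separate in the ratio, which needs no scaling (1.14 to 1.20 against 1.33 to 1.99) but overlaps once hsa-miR-93-3p is added (1.64 to 1.84 against 1.76 to 2.53).

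Of the 4 seeds, the miR-92 seed alone gave sums that separated the groups on the TMM scale. Its 4 guides summed to 1183, 1381, and 1301 CPM in the control libraries and to 2481, 1679, and 1893 CPM in the Na2SeO3 libraries, 1.55-fold (exact permutation test, two-sided, p = 0.1, the smallest possible), of which miR-25-3p was 52.5% to 65.9%. With raw reads as the scale the log2 ratio was -0.49. The 5 guides with the miR-17 seed summed to 319, 331, and 499 CPM against 404, 388, and 356 CPM, 1.02-fold, with the Na2SeO3 libraries inside the control range (exact permutation test, p = 1). The miR-19 seed summed to 55.2 to 93.8 CPM and 66.9 to 107 CPM (exact permutation test, p = 0.6). The miR-18 seed, at 1 to 6 counts in a library, had 0.647 to 3.10 CPM and 1.45 to 5.49 CPM, log2 ratio 1.13 with overlapping groups (exact permutation test, p = 0.3). This ratio was 0.47 without control library 3 and 1.77 without Na2SeO3 library 1, and the counts of 1 lie below the limit of 3.

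Members with the same seed from different clusters were set against each other in the same way, again chosen after the values were seen. The ratio of miR-25-3p to miR-92a-3p was 1.40, 1.38, and 1.47 in the control libraries and 2.40, 1.57, and 2.27 in the Na2SeO3 libraries, which did not overlap. It is not independent of the ratio of the clusters given above. The ratio of miR-93-5p to miR-17-5p was 1.09, 0.809, and 1.08 and then 1.09, 1.42, and 1.18, which also did not overlap, although the lowest Na2SeO3 value and the highest control value were almost equal. In both the exact permutation test gave p = 0.1, and 0.2 after Benjamini-Hochberg adjustment over the 4 ratios chosen this way. The other carrier of the miR-92 seed, rno-miR-32-5p, was at 18.98, 14.5, and 29.1 CPM in the control and at 14.5, 28.1, and 19.8 CPM in the Na2SeO3 libraries, with log2FC 0.05 ± 0.33 (SE; adjusted p = 0.913, edgeR).

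In the control libraries the order of the levels started with miR-25-3p, whose range did not meet that of miR-92a-3p, and miR-92a-3p in turn lay above all others. miR-20a-5p, miR-363-3p, miR-17-5p, miR-93-5p, and miR-106b-3p followed with overlapping ranges between 76.6 and 174 CPM. Below them miR-19b-3p, miR-106b-5p, miR-92b-3p, and miR-19a-3p formed a chain in which neighbours overlapped, from 65.3 down to 18.8 CPM, and miR-20b-5p and miR-18a-5p were lowest among the guides. In the Na2SeO3 libraries miR-25-3p and miR-92a-3p were again first and apart from the rest, and miR-106b-3p came next, with a range that overlapped that of miR-20a-5p. These levels were not divided by length, since the mature guides have 21 to 23 bases, and the capture of each sequence in a small RNA library also affects them. By mean CPM, miR-25-3p ranked 73 of the 341 miRNAs in the control and 50 in the Na2SeO3 group, and miR-92a-3p ranked 84 and 73.

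**Figure D4:**
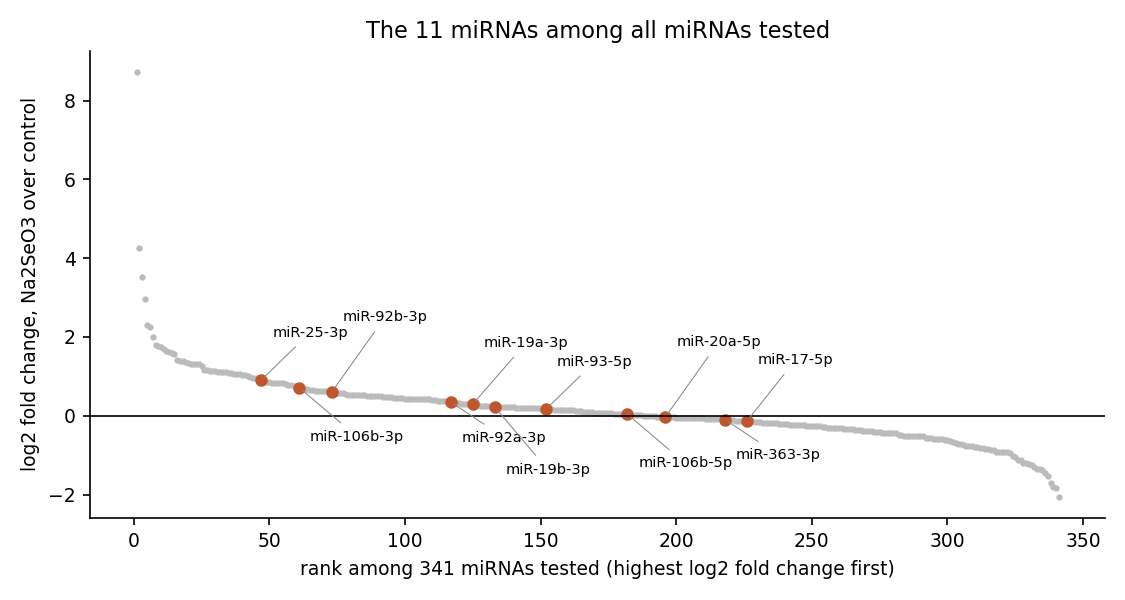
All 341 miRNAs tested in order of their log2 fold change, Na2SeO3 over control on the TMM scale, with the 11 members in orange. miR-25-3p (0.91) is at rank 47 and miR-106b-3p (0.71) at rank 61 from the top, both of which have negative values with raw reads as the scale, and the lowest member, miR-17-5p, is at rank 226; the highest grey point has no count in the control libraries, so its height depends on the prior count of the fit.

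Among miRNAs outside the clusters, the likeness to the mean log2 CPM of the tested guides was measured by Pearson's r over the 6 libraries, as a description. For the 5 guides of miR-17-92 it was highest in rno-miR-143-5p (0.91), rno-miR-425-5p (0.86), and rno-miR-485-3p (0.85). For the 3 guides of miR-106b-25 it was highest in rno-miR-126a-3p (0.97), rno-miR-346 (0.95), and rno-miR-135b-5p (0.94). These points share their libraries and their depth.

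Of 21 miRNAs that are known to be repressed by Myc, such as let-7, miR-15, miR-29, and miR-30 members, all 21 were tested. At the adjusted p-value 0 were higher and 6 lower (edgeR, TMM scale, where 13.8% of all miRNAs tested were lower). The median log2 fold change of the 21 was -0.32 against 0.08 over all, with 3 positive and 18 negative. Those lower were miR-26a-5p, miR-30c-5p, miR-30d-5p, and the a, b, and c forms of miR-29. The paper also reports these miR-29 forms as down-regulated. The let-7 members, at log2FC -0.07 to 0.22, and miR-15a-5p, at -0.40 (adjusted p = 0.537, edgeR), did not pass. miR-16-5p was at 0.42 (adjusted p = 0.068, edgeR). Of all miRNAs tested, 20.8% were higher at the adjusted p-value, which the counts of markers stand beside. Of the erythroid markers, 1 of 3 tested rose, rno-miR-486, from 137 ± 20.8 to 299.5 ± 86.6 CPM (SD, n = 3 each; log2FC 1.12, adjusted p = 0.0015, edgeR). Another marker of the list, rno-miR-451-5p, was at 128 ± 11.6 and 133 ± 25.9 CPM (SD, n = 3 each; log2FC 0.06, adjusted p = 0.833, edgeR), rno-miR-144-5p was at 5.93 ± 1.55 and 8.14 ± 1.52 CPM (log2FC 0.41, adjusted p = 0.526), and rno-miR-144-3p was at 0 in 1 library. The summed erythroid markers were 254 to 306 CPM in the control and 403 to 518 CPM in the Na2SeO3 libraries, a difference that came mostly from rno-miR-486. All 4 skeletal muscle markers were higher in the Na2SeO3 group at the adjusted p-value, with sums of 6368 to 8144 and 12835 to 14183 CPM, and leukocyte markers, none of which passed, summed to 153 to 190 and 122 to 180 CPM. Of the glial and neural markers, which summed to 30090 to 37493 and 36956 to 46793 CPM, 2 of 6 tested were higher. Most of the sum was rno-miR-9a-5p, a neural miRNA, which was 1 of these at 28024 ± 3945 and 37628 ± 5990.2 CPM (SD, n = 3 each; log2FC 0.43, adjusted p = 0.0478, edgeR). The glial markers differed in sign, with log2FC 4.26 for rno-miR-219a-2-3p (adjusted p = 2.04e-06) and -0.93 for rno-miR-338-3p (adjusted p = 0.0519, edgeR), and rno-miR-219a-5p had 0 or 1 counts in each library. Neither of the 2 endothelial markers passed, at sums of 20568 to 26048 and 25181 to 30491 CPM. The 2 surface epithelium markers and 1 of the 2 lens markers were lower, the former with sums of 4781 to 5175 and 2245 to 2390 CPM. The part of these cell types in the rise of miR-25-3p was not tested.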

How the data were processed

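Small RNA was sequenced from the lens capsules of 3 control and 3 Na2SeO3 rats. Per its methods, the study used Cutadapt, Fqtrim, and FastQC for reads and miRDeep with the Ensembl genome for identification (HISAT2 is also named). The authors deposited raw read counts per miRNA name, neither normalized nor pooled. Versions, the genome build, and the treatment of reads that match several miRNAs are not given in the sources used here. The members and lists were chosen with earlier results of these data known. All 27 names are accounted for, and values per library are given for guides with enough counts and for any other arm tested.

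Low counts were removed by filterByExpr (minimum count 10). The groups were then compared, after TMM scaling, in edgeR's quasi-likelihood test without covariates, adjusted by Benjamini-Hochberg over 341 miRNAs. The SE was derived as log2FC over the square root of the F statistic. Sums and ratios, 1 value per library, were compared by two-sided exact permutation tests, and 0.5 was added to the counts of each arm in the ratio of arms. Libraries of the same group differed beyond sampling noise (chi-square over its degrees of freedom 57.1 to 77.0 between control libraries and 28.0 to 71.7 between Na2SeO3 libraries). In simulated counts with a common dispersion and 200 names changed by a log2FC of 2, 353 to 370 names were tested. Of the changed names tested, 99.0% to 100% were called. The members' log2FC were all smaller than this, so the simulation does not show how often changes of their size would be called. The raw reads per library that the study lists served only as an alternative scale. R 4.3.3, edgeR 4.0.16, DESeq2 1.42.0, and scipy 1.17.1 were used.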

Additional observations from a re-analysis of the deposited data

How the results depend on the processing

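With 3 libraries per group and 663096 to 968151 counts in the Na2SeO3 libraries, low members could not be tested. All directions are relative to other miRNAs. The number of DEmiRNAs among the members, 0, was 1 with library size only (miR-25-3p, higher) and 4 with raw reads as the scale (miR-17-5p, miR-20a-5p, miR-106b-5p, and miR-363-3p, all lower), 2 without the fold change threshold (both higher), and 0 to 1 with each library left out (miR-25-3p, higher, without Na2SeO3 library 2). With a library left out, 8.47% to 11.1% of all miRNAs tested were up-regulated DEmiRNAs (9.6% without Na2SeO3 library 2) and 3.53% to 5.33% down-regulated. Past the adjusted p-value, 2 members were higher. With library size only 4 were higher, miR-92a-3p and miR-92b-3p besides these 2, where 28.2% of all miRNAs tested were. With raw reads 0 were higher and 6 lower, neither miR-25-3p nor miR-106b-3p among them, where 1.76% of all were higher and 61.0% lower. With no filter 1 was higher, where 6.34% of all were, and 0 lower, where 5.93% were. With glmTreat, which tests against the fold change threshold, 0 passed, where 1.76% of all were higher and 0.88% lower. With a library left out 1 to 2 were higher (miR-25-3p alone without control library 1, 2 or 3 or Na2SeO3 library 3), where 12.2% to 18.9% of all were. Over all miRNAs the 56 DEmiRNAs became 182 with raw reads (6 higher and 176 lower, against 39 and 17 with TMM, 53 and 10 with library size only, and 32 and 22 with upper-quartile scaling), 9 with glmTreat, and 118 without the fold change threshold. The 118 past the adjusted p-value became 214 with raw reads, 9 with glmTreat, and 73 to 128 with a library left out (73 without control library 2 and 75 without control library 3).

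With raw reads the log2 ratios of the sums were -0.90 for miR-17-92, -1.15 for miR-106a-363, -0.35 for miR-106b-25, -0.45 for miR-92b, -1.09 for the miR-17 seed, -0.90 for the miR-19 seed, -0.49 for the miR-92 seed, and 0.013 for the miR-18 seed, which has few counts. The log2FC was -1.25 for miR-17-5p, -1.21 for miR-363-3p, -1.13 for miR-20a-5p, -0.26 for miR-25-3p, -0.42 for miR-106b-3p, -1.09 for miR-106b-5p, -0.95 for miR-93-5p, -0.80 for miR-19a-3p, -0.85 for miR-19b-3p, -0.81 for miR-92a-3p, and -0.57 for miR-92b-3p. The median of all miRNAs moved with them, from 0.08 to -1.07. With library size only, the sum of miR-17-92 was 0.42 and the log2FC was 0.064 for miR-17-5p, 0.18 for miR-20a-5p, and 0.10 for miR-363-3p. That of miR-106b-5p, 0.04 with TMM, was 0.24 with library size only, -0.011 with DESeq2 size factors, -0.045 with upper-quartile scaling, -0.035 with no filter, and -0.0099 with DESeq2. With each library left out, log2FC ran from -0.14 to 0.31 for miR-106b-5p, -0.27 to 0.019 for miR-17-5p, -0.20 to 0.47 for miR-19a-3p, -0.19 to 0.24 for miR-20a-5p, and -0.26 to 0.11 for miR-363-3p.

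Without miR-19b-3p and miR-92a-3p the sum of miR-17-92 was -0.013 and the log2 difference of the ratio of miR-106b-25 to miR-17-92 was 0.78. Without miR-17-5p as well, a setting chosen after seeing the data, the sum was 0.057. Without miR-25-3p, also chosen after seeing the data, the log2 difference of the ratio was 0.18, a fall that the choice of this miRNA fixes. With hsa-miR-93-3p added, likewise chosen after seeing the data, it was 0.39 and the groups overlapped. Sums by seed hold guides alone, so restricting them to guides gave no other value. Beyond what these settings show, the cause was not tested.

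Same-numbered libraries did not deviate together (correlations of -0.17, -0.18, and -0.26), so they share only a number. With the replicate block 0 members and 49 of all miRNAs were DEmiRNAs, with 9.68% of all up-regulated and 4.69% down-regulated. Past the adjusted p-value, 2 members were higher with this block, where 16.1% of all were, and 0 lower, where 12.3% were.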
